A study of Mus musculus with 36 samples.

Results

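Secondary mouse embryonic fibroblasts (MEFs) that carry inducible Klf4, Oct4 and Sox2 (KOS) and a Zscan4-ERT2 fusion were compared on day 6 of doxycycline, with tamoxifen (Dox+Tmx+, 2 arrays) and without it (Dox+Tmx-, 2 arrays). The arrays were chosen by their titles and treatment labels, and are 4 of the 36 arrays and 2 of the 18 groups of the series. Every non-control probe was considered, and 33099 of 42006 probes passed a filter on dim signals that used all 18 groups. Both groups were second generation MEFs of clone 1 on a hybrid C57Bl/6 and 129 background, plated on gelatin in ES medium with LIF, per the labels. Both received doxycycline at 1.5 µg/ml, and the Dox+Tmx+ group also received tamoxifen at 200 nM. The KOS and Zscan4-ERT2 transgenes were therefore present in both groups, and the control cells were already under induction of KOS. All secondary MEFs came from 1 clone, and the labels do not name the promoters of the transgenes.

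The other groups used below included the same cells without doxycycline (Dox-Tmx- on days 1, 3 and 6, Dox-Tmx+ on days 3 and 6). They also included the doxycycline groups of days 1 and 3, induced pluripotent stem (iPS) cells of the KOS-ZERT2 type and v6.5 embryonic stem (ES) cells. The last were wild primary MEFs without tamoxifen (MEF3), and primary MEFs with Zscan4-ERT2 but no KOS (MEF2), with and without tamoxifen. Each group had 2 arrays, and no label says that they are separate cultures. Each p-value therefore reflects only the spread between the 2 arrays of a group, pooled over the 18 groups, which may be technical.

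Zscan4 is a zinc finger and SCAN domain gene of the 2-cell embryo, and in ES cell cultures it is switched on in bursts in a small share of the cells, where it is known for its part in telomere and genome maintenance. Klf4, Oct4 and Sox2 are transcription factors that together can return fibroblasts to a pluripotent state, in a course that begins with the loss of fibroblast expression and ends with that of ES cell genes. ERT2 is a modified estrogen receptor domain, and tamoxifen activates a protein that carries it. The comparison asks what tamoxifen, given to activate the Zscan4 fusion, adds to KOS after 6 days. Both groups carry the fusion, so an effect of tamoxifen itself and one of active Zscan4 cannot be told apart. No cells without KOS received doxycycline, so an effect of doxycycline itself and one of KOS cannot be told apart either. The title of the series concerns early embryonic genes in the making of iPS cells.

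Each array carried the sample in Cy3 and 1 common reference in Cy5, a pool of mouse cell line RNA to which ES cell RNA had been added. Levels are therefore log2 ratios of sample over reference, and a change is the difference of 2 such levels. The files gave no gene name for any probe, so Zscan4, the KOS transgenes, fibroblast markers and the gene lists chosen for this tissue could not be looked up, and the labelled cell type and the activity of the fusion were not checked at the level of genes. Probes are described by their identifier and by their level in ES cells, iPS cells and MEFs. RNA came from whole cultures, so fewer cells of a type and less RNA per cell cannot be told apart.

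The 4 arrays lay on 1 slide and were scanned on the same day. The arrays with tamoxifen were at positions 3 and 4 and those without it at positions 1 and 2, so an effect of position and of tamoxifen cannot be told apart. The sample signal of 72.55% to 75.87% of the probes was well above background on the 4 arrays, against 54.93% to 77.13% over the whole series, and precision is limited by how few arrays there are. The 2 arrays of a group correlated at 0.99 without tamoxifen and 0.988 with it, and the median SD between them was 0.0557 and 0.0542 on the log2 scale. One group used below stood apart: the Dox-Tmx+ arrays of day 6 had the widest replicate SD of the 18 groups, 0.0954, and the lowest correlation, 0.968.

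The first 30 of the 60 bases of 4 probes are shown, because these had the largest changes on day 6 among probes that were called, well above background on all 4 arrays and without overlap between the groups. The sequences come from the deposited scanner files and run from the first base as listed there. Z00029389-1 and Z00034851-1 rose with tamoxifen, and Z00036206-1 and Z00016353-1 fell.
Z00029389-1: tgacataggctggcttagaagtcactatgt
Z00034851-1: GGAGGAAGAGAAGGCCTCCTGggaggaaga
Z00036206-1: gtggaatgtgttatgaaaggcgtgacttcc
Z00016353-1: tgtaagcagcgaagattttaattcaccaat
The capitals in Z00034851-1 mark a unit of 21 bases that repeats without a mismatch along the probe, 1 of 11 such tandem repeats among the probes tested, of which 2 rose and 1 fell. Its GC content was 61.7%, against a median of 45% for all probes tested. No repeat was found in the other 3 sequences, whose GC content was between 35% and 45%. Where these probes lie in the genome is not given in the files.

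With tamoxifen 2246 probes rose and 805 fell, which is 6.79% and 2.43% of the 33099 tested (limma on all 36 arrays, Benjamini-Hochberg adjusted p under 0.05, two-sided). Most changes were small. The median rise was 0.34 on the log2 scale, or 1.27-fold, the quartiles were 0.26 and 0.49, and 392 probes rose at least 1.5-fold. The median fall was -0.28, or 1.21-fold, and 39 probes fell at least 1.5-fold. At least 2-fold changes were found for 76 rising probes (0.23% of those tested) and 4 falling probes (0.0121%). The median change over all probes tested was 0.01. The tamoxifen and control arrays did not overlap in 2241 of the rising and 803 of the falling probes, nor in 12454 of the 30048 probes that were not called.

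**Figure D1:**
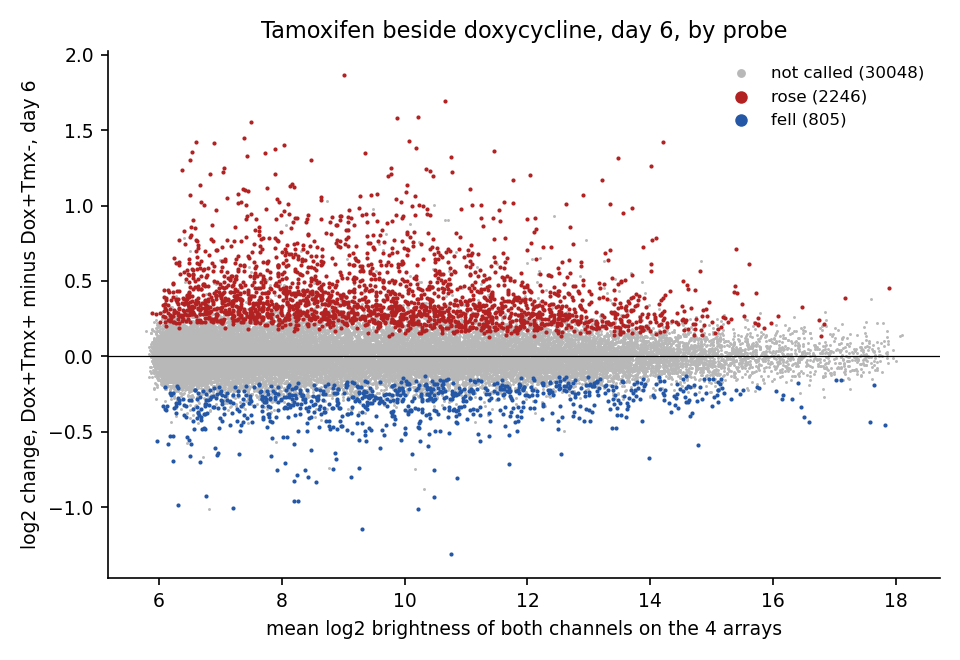
Each point is 1 of the 33099 probes tested, with its mean log2 brightness over both channels and the 4 arrays on the horizontal axis and its log2 change (Dox+Tmx+ minus Dox+Tmx-, day 6) on the vertical axis. The 2246 probes that rose (red) reach 1.87 and the 805 that fell (blue) reach -1.31, and both occur over nearly the whole range of brightness.

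The split between rises and falls depended on the processing. Rises were 73.6% of the calls here and 58.4% with the scanner software's own ratio (1181 rose, 840 fell). They were 55.9% in the authors' series matrix (1353 rose, 1069 fell), in which 20183 probes were tested. Rises were 82% with median centring (1331 rose, 293 fell). With the same ratios as here but only the 4 arrays fitted, they were 86.4% (845 rose, 133 fell). The total of 3051 calls was 1395 when local backgrounds were used as deposited, 1624 with median centring, 2021 with the software's ratio and 978 when the spread was estimated from the 4 arrays alone. It was 1818 without replicate 2 of the Dox+Tmx- group and 1918 without replicate 1 of the Dox+Tmx+ group.

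The largest rise was that of Z00029389-1. Its log2 ratio to the reference was 0.91 and 0.82 on the Dox+Tmx- arrays and 2.83 and 2.64 on the Dox+Tmx+ arrays. Both tamoxifen arrays were far above both controls, a change of 1.87 (SE 0.0807, 3.65-fold, limma adjusted p = 2.38e-13, higher on 2 of 2 arrays). Without doxycycline the probe stood at -1.43 ± 0.004 (SD, n = 2) on day 6 and at -1.37 ± 0.0461 with tamoxifen alone. The level with both drugs was also above that of ES cells, 0.74 ± 0.0316, and of iPS cells, 0.08 ± 0.0708. With doxycycline alone it was close to the ES level. In wild MEFs the probe was not well above background on either array.

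Z00034851-1, the repeat probe, had the second largest rise. It stood at -3.06 and -3.20 on the Dox+Tmx- arrays and at -1.45 and -1.42 on the Dox+Tmx+ arrays. The change was 1.69 (SE 0.0953, 3.23-fold, limma adjusted p = 1.96e-11). Here the level with both drugs lay between that of uninduced cells, -5.13 ± 0.0336 (n = 2), and those of iPS cells, 0.26 ± 0.006, and ES cells, 1.13 ± 0.0174. In wild MEFs it was not well above background.

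Among the falling probes, Z00036206-1 was at 0.42 and 0.48 on the Dox+Tmx- arrays and at -0.60 and -0.79 on the Dox+Tmx+ arrays. It fell by 1.15 (SE 0.0881, 2.22-fold, limma adjusted p = 2.67e-09), without overlap. Uninduced cells of day 6 held it at 3.33 ± 0.0136 (n = 2) and wild MEFs at 2.66 ± 0.05, and in ES and iPS cells it was not well above background. The fall with tamoxifen therefore added to the far lower level already seen under doxycycline.

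Z00016353-1 was at 0.57 and 0.45 without tamoxifen and at -0.46 and -0.54 with it, a fall of 1.01 (SE 0.108, 2.02-fold, limma adjusted p = 3.88e-07). Uninduced cells of day 6 had a lower level, -1.17 ± 0.18 (n = 2), so this was a probe that stood higher under doxycycline and less so when tamoxifen was added. Its level was -2.16 ± 0.0453 in ES cells, -2.82 ± 0.005 in iPS cells and 0.34 ± 0.12 in wild MEFs.

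The 2 other probes that fell at least 2-fold are named because they complete the 4, after their values were seen. Z00023888-1 went from 2.74 and 2.75 to 1.72 and 1.75, a fall of 1.01 (SE 0.113, limma adjusted p = 8.06e-07). The call was lost with local backgrounds as deposited (limma adjusted p = 0.0656), and the change was -0.54 with the scanner software's ratio (adjusted p = 0.546) and in the series matrix (adjusted p = 0.286). Z00034632-1 had the lowest fitted change, -1.31, but its SE was 0.404 (limma adjusted p = 0.0413). It stood at 0.46 and 0.39 without tamoxifen and at 0.47 and -2.24 with it, so a single array of the tamoxifen group carried the change and the groups overlapped.

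**Figure D2:**
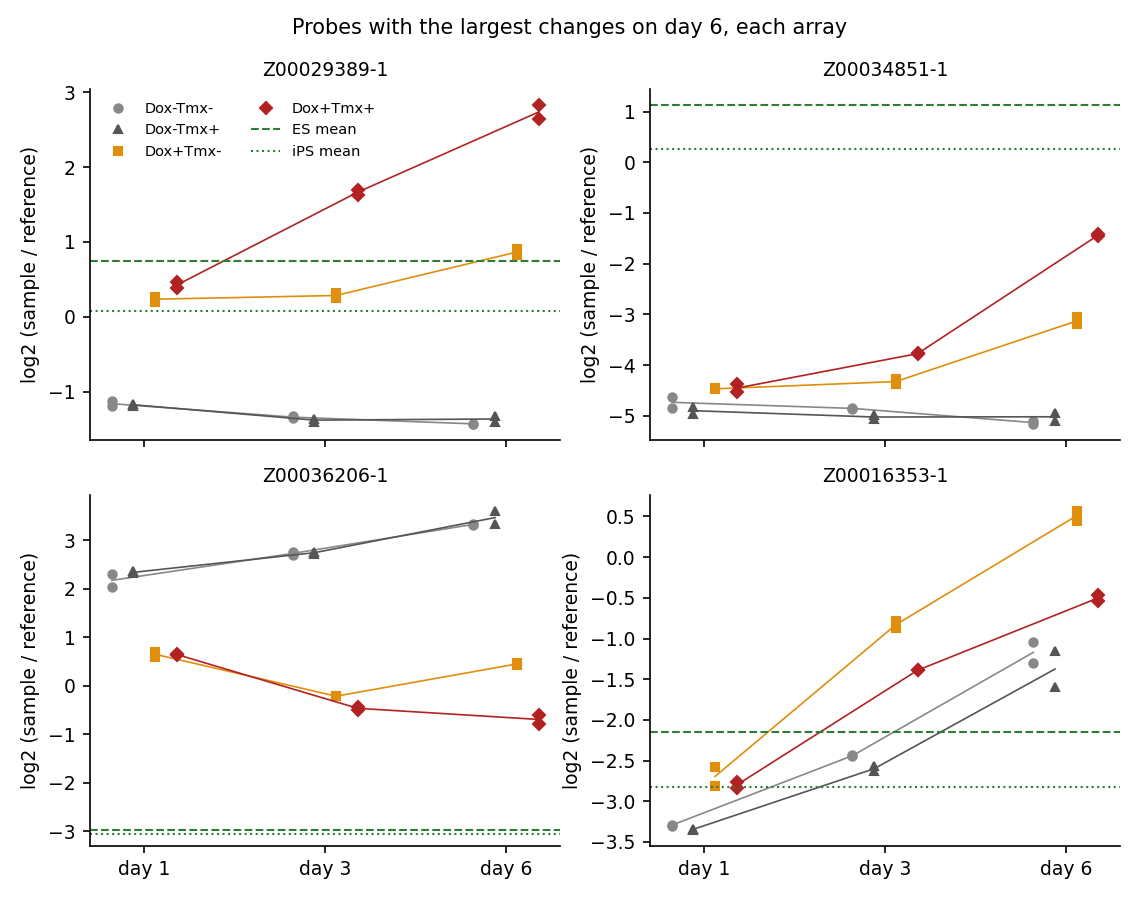
The log2 ratio of sample over reference of the 4 probes with the largest changes is plotted for each array of the secondary MEFs on days 1, 3 and 6. Points are arrays, lines join group means, and the green lines give the means of ES cells (dashed) and iPS cells (dotted). The Dox+Tmx+ and Dox+Tmx- arrays are close to each other on day 1 and well apart on day 6.

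The probes were next read against the states at both ends of reprogramming, with arrays that the day 6 comparison does not use. In ES cells 1201 probes were at least 4-fold higher than in untreated wild MEFs (3.63% of those tested) and 2507 at least 4-fold lower (7.57%, both with an adjusted p under 0.05), called ES-high and MEF-high here. For probes that were not well above background on 1 side, this fitted difference is no measured fold. The groups compared here, and those compared below for doxycycline, iPS cells and time in culture, lay on different slides. In these classes a slide effect therefore cannot be told apart from the groups. The same holds for scan day between ES cells and wild MEFs, and between cultures of day 1 and those of days 3 and 6. Of the ES-high probes 457 rose with tamoxifen on day 6 (38.1%, against 6.79% of all probes) and 13 fell (1.08%, against 2.43%). Their median change was 0.17, against 0.01 over all probes tested, and 983 of the 1201 had a change above 0. Of the MEF-high probes 308 fell (12.3%) and 110 rose (4.39%), and their median change was -0.07. Of the 29391 probes in neither class 1679 rose (5.71%) and 484 fell (1.65%).

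ES-high probes were thus a minority of all that rose. Of the 76 probes that rose at least 2-fold, 37 were ES-high, 36 were in neither class and 3 were MEF-high. The ES-high probes were brighter than those in neither class, with a median log2 brightness of 9.69 against 8.27, and 9.67% of the probes in the fourth of 5 equal brightness classes, which holds that level, rose. The count of ES-high rises was 121 with local backgrounds as deposited and 278 when only the 4 arrays were fitted. It was 304 in the series matrix, where only 20183 probes were tested. The median change of the ES-high probes there was 0.23. The 308 falls among MEF-high probes became 197 without replicate 1 and 199 without replicate 2 of the Dox+Tmx- group, and 169 without replicate 2 of the Dox+Tmx+ group. The medians kept their sign in every alternative run, from 0.16 to 0.23 for ES-high and from -0.10 to -0.05 for MEF-high probes.

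The change with tamoxifen was graded by the size of the difference between ES cells and MEFs. Of the 222 probes with a log2 difference of 4 or more toward ES cells, 133 rose (59.9%) and 0 fell, and their median change was 0.37, with quartiles of 0.17 and 0.67. The median was 0.14 for the 979 probes between 2 and 4, of which 33.1% rose, and 0.04 for the 2783 probes between 1 and 2, of which 12.1% rose. Between -1 and 1, where most probes lie, the medians were near 0. At the MEF end, 138 of the 565 probes with a difference below -4 fell (24.4%) and 12 rose (2.12%), with a median of -0.12. Tamoxifen without doxycycline had medians of 0.01 in the highest class and 0.03 in the lowest on day 6, and 0.06 and -0.01 without replicate 2 of the Dox-Tmx+ group, which stood apart.

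**Figure D3:**
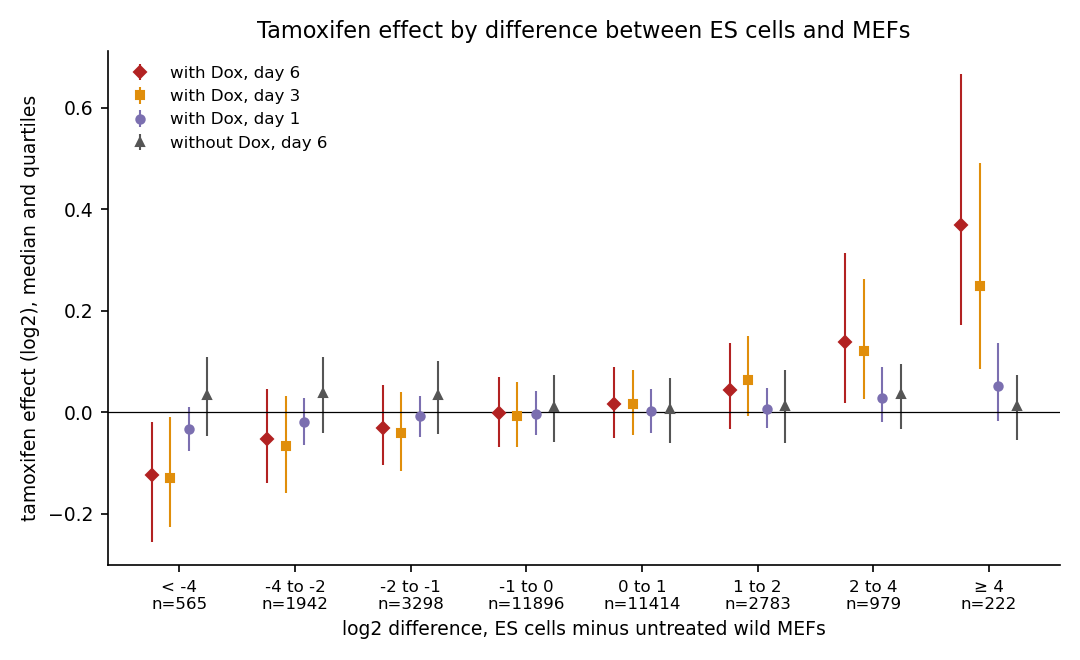
The horizontal axis gives 8 classes of probes by their log2 difference between ES cells and untreated wild MEFs, with the number of probes in each, and the vertical axis the tamoxifen effect on the log2 scale, as the median (point) and quartiles (bars) over probes. With doxycycline the medians run from -0.12 to 0.37 on day 6 and from -0.13 to 0.25 on day 3. On day 1 and without doxycycline they stay close to 0.

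The level of these sets on each array shows where the cells stood on day 6. The median log2 ratio of the ES-high probes was -1.31 and -1.34 on the Dox+Tmx- arrays and -1.14 on both Dox+Tmx+ arrays. Uninduced cells of day 6 had -1.98 on both arrays, iPS cells 1.06 and 1.08, and ES cells 1.11 on both. Uninduced cells of day 1 had -1.65 and -1.59. Measured from uninduced cells of day 6, cells with doxycycline alone had thus covered a small part of the distance to ES cells. The part added with tamoxifen was smaller. With both drugs 1068 of the 1201 probes were still below all 4 ES and iPS arrays, against 1094 with doxycycline alone. The MEF-high median was 0.55 and 0.52 without tamoxifen and 0.47 and 0.43 with it. It was 1.09 and 1.11 in uninduced cells of day 6 and -1.88 and -1.81 in ES cells. In uninduced cells it had been lower earlier, 0.51 and 0.44 on day 1 and 0.788 and 0.785 on day 3. Doxycycline alone on day 6 was thus not below uninduced cells of day 1, and the arrays with both drugs overlapped them. On day 3 of doxycycline the ES-high median had been higher in both arms, -1.12 and -1.13 without tamoxifen and -0.97 and -0.96 with it.

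**Figure D4:**
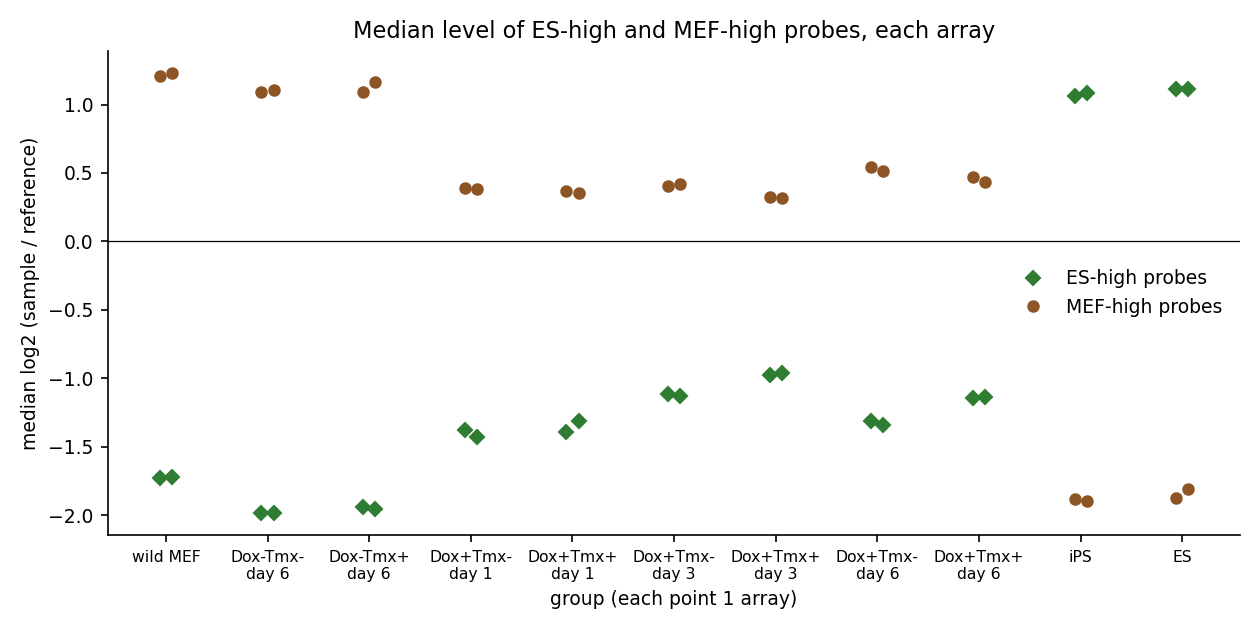
Each point is 1 array, and the vertical axis is the median log2 ratio of sample over reference over the 1201 ES-high probes (green) or the 2507 MEF-high probes (brown). The day 6 arrays with both drugs lie above their controls for ES-high and below them for MEF-high probes. Both groups lie between uninduced cells of day 6 and the ES and iPS cells.

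Calls were more frequent among probes that doxycycline itself had moved, though most calls lay outside them. Doxycycline alone, measured on day 3 in arrays outside the day 6 comparison, raised 2677 probes at least 2-fold (8.09%) and lowered 1482 (4.48%). Of those it raised, 939 rose with tamoxifen on day 6 (35.1%, against 6.79% of all probes), with a median change of 0.17. The 59 that fell were 2.2%, close to the 2.43% of all probes. Of those it lowered, 247 fell (16.7%), with a median of -0.09, and 45 rose (3.04%, fewer than the 6.79% of all probes). Of the 28940 probes it did not move by that much, 1262 rose (4.36%) and 499 fell (1.72%).

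Both properties together gave the highest share. Of the 385 probes that were ES-high and raised by doxycycline on day 3, 258 rose with tamoxifen on day 6 (67%), with a median change of 0.34. ES-high probes that doxycycline had not moved rose in 196 of 784 cases (25%, median 0.11), and probes raised by doxycycline but in neither class in 644 of 2040 (31.6%, median 0.15). On the other side, 185 of the 703 MEF-high probes that doxycycline had lowered fell with tamoxifen (26.3%, median -0.14), against 108 of 1552 MEF-high probes it had not moved (6.96%). MEF-high probes that doxycycline had raised rose with tamoxifen in 37 of 252 cases (14.7%) and fell in 15 (5.95%). Still, 1002 of the rising probes were neither ES-high nor MEF-high and had not been moved by doxycycline, out of 26604 such probes (3.77%).

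**Figure D5:**
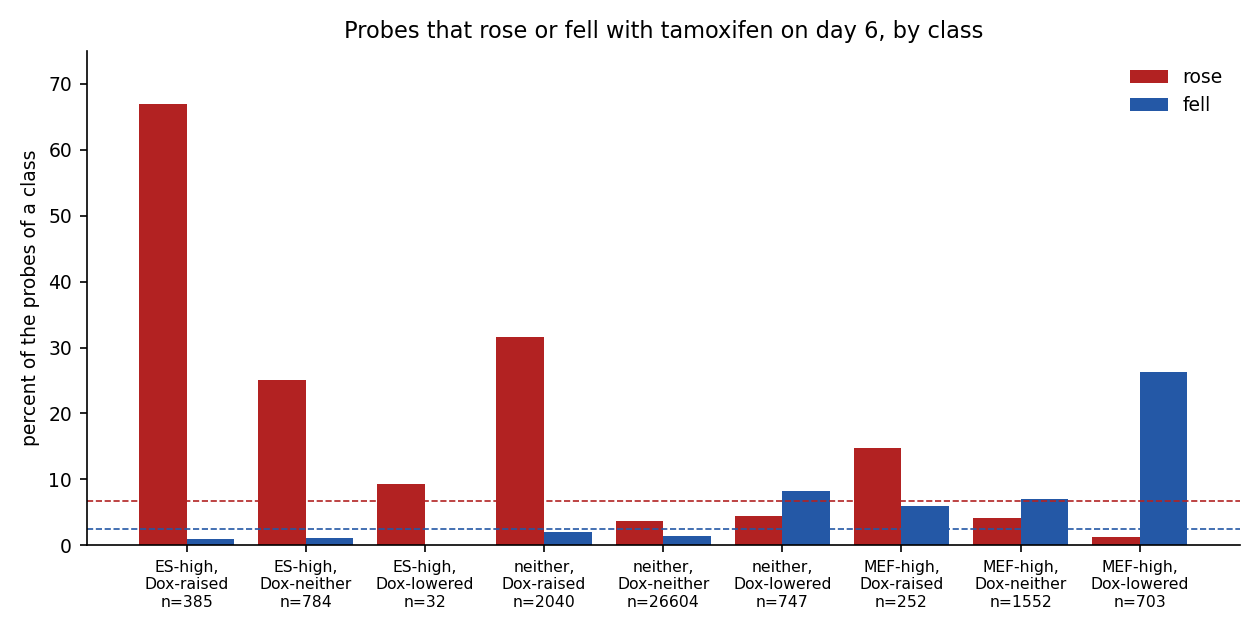
Bars give the percent of probes that rose (red) or fell (blue) with tamoxifen on day 6, in 9 classes by the difference between ES cells and wild MEFs (4-fold) and by the effect of doxycycline alone on day 3 (2-fold), with the number of probes under each. Dashed lines mark the shares over all probes tested, 6.79% and 2.43%. The ES-high probes raised by doxycycline reach 67% rising, and the MEF-high probes lowered by it 26.3% falling.

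Between days 1 and 3 of doxycycline alone, 1345 probes rose at least 2-fold (4.06%), and 569 of them rose with tamoxifen on day 6 (42.3%, against 6.79% of all probes), with a median change of 0.20. The iPS cells, made from cells with the same transgenes, were also compared with uninduced secondary MEFs of day 6. They were at least 4-fold higher in 1498 probes (4.53%), of which 490 rose with tamoxifen (32.7%, median 0.14), and lower in 2621 (7.92%), of which 322 fell (12.3%, against 2.43% of all probes, median -0.07).

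Time in culture without doxycycline was read the same way. In uninduced cells 1651 probes were at least 2-fold higher on day 6 than on day 1 (4.99%) and 836 lower (2.53%). Of those that went up with time, 181 fell with tamoxifen beside doxycycline on day 6 (11%, against 2.43% of all probes) and 110 rose (6.66%, close to the 6.79% of all probes). Of those that went down with time, 138 rose (16.5%) and 14 fell (1.67%).

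Many of the rising probes, like many of all probes tested, lay above the levels of ES and iPS cells. With both drugs, 1375 of the 2246 were above all 4 ES and iPS arrays, 764 were below all of them and 107 between, against 1182, 943 and 121 with doxycycline alone. The share above all 4 was 61.2% with both drugs and 52.6% with doxycycline alone. Among all 33099 probes tested it was 48.1% with both drugs (15908 probes) and 47.4% with doxycycline alone (15689). Of the 457 rising ES-high probes, 80 had passed the ES and iPS levels with both drugs (17.5%) and 56 with doxycycline alone (12.3%). Of all 1201 ES-high probes 111 (9.24%) and 87 (7.24%) had. These levels use the arrays of the comparison itself and are a description. A gain with tamoxifen among probes chosen because they rose follows from that choice.

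Without doxycycline, no probe was called for tamoxifen on day 6 (0 of 33099, 0%), and 2989 had an unadjusted limma p under 0.05. That count rests on the Dox-Tmx+ group, whose replicate 2 correlated at no more than 0.979 with the other 3 uninduced arrays of day 6, while each of those correlated at 0.991 with at least 1 other. Without this array 29 probes were called (13 higher, 16 lower). With it alone, replicate 1 left out, 7127 were called (4170 higher, 2957 lower). The authors' series matrix gave 628 calls with all arrays, among 20183 probes tested. The median effect of tamoxifen alone was 0.04 over the probes that rose beside doxycycline and 0.01 over those that fell, against 0.01 over all probes tested, and it was 0.02 and -0.02 without replicate 2.

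The effect of tamoxifen differed with and without doxycycline in 1337 probes by limma's test of the difference itself, 1010 toward a higher effect with doxycycline (3.05%) and 327 toward a lower one (0.988%). Of the ES-high probes 288 had a higher effect with doxycycline (24%), and of the MEF-high probes 144 a lower one (5.74%). Without replicate 2 of the Dox-Tmx+ group the difference was called in 873 and 142 probes, with 248 of the ES-high and 74 of the MEF-high probes. Without replicate 1 it was called in 3273 and 3302, and without replicate 1 of the Dox-Tmx- group in 712 and 128. When only the 8 arrays of these groups were fitted, 202 probes were called.

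The probes with the largest differences were looked up after the values were seen. Z00038074-1 stood at 0.90 and 0.80 with doxycycline and at 2.49 and 2.38 with both drugs, past the ES mean of 1.90 and the iPS mean of 1.89. In uninduced cells it was at -1.05 and -2.36, and at -2.23 and -2.27 with tamoxifen alone. The difference was 2.13 (SE 0.311, limma adjusted p = 0.000109), and 1.47 without replicate 1 of the Dox-Tmx- group, which stood apart from its partner. Z00019524-1 had a difference of 2.29, made up of 0.93 beside doxycycline and -1.35 without it, neither of them called. Its arrays scattered, from -0.61 to -0.02 with doxycycline and from 0.12 to 1.12 with both drugs (SE 0.553, limma adjusted p = 0.0166), and the call was lost without replicate 1 of the Dox-Tmx- group (adjusted p = 0.0746). In the other direction, Z00022184-1 was at 1.84 and 1.71 with doxycycline and at 0.91 and 0.73 with both drugs, and the difference was -1.33 (SE 0.156, limma adjusted p = 6.76e-06). Its tamoxifen effect beside doxycycline, -0.96, was called here and not called with local backgrounds as deposited (limma adjusted p = 0.0659). For Z00036206-1 it was -1.29 (SE 0.125, limma adjusted p = 4.17e-07), with 3.33 without and 3.47 with tamoxifen in uninduced cells.

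Beside doxycycline, tamoxifen was also given for shorter times. On day 3, 1712 probes rose (5.17%) and 711 fell (2.15%), while the first day gave 91 that rose (0.275%) and 34 that fell (0.103%). The arrays of the 3 days are separate, but their slides share a layout. As on day 6, the arrays with tamoxifen were at positions 3 and 4 and those without it at positions 1 and 2. The slides of days 3 and 6 without doxycycline had the same layout. On none of these slides can an effect of position and of tamoxifen be told apart. Of the probes that rose on day 6, 2089 of 2246 had a change above 0 on day 3 (93%, against 51.5% of all probes) with a median of 0.21, and 1042 were called higher, which is 46.4% of the day 6 rises and 60.9% of the day 3 rises. Of the probes that fell on day 6, 289 of 805 were called lower on day 3, 35.9% of the one list and 40.6% of the other. On day 1, 74 of the rising probes were called higher, with a median of 0.05, and 15 of the falling ones lower. Over the 33099 probes, which are not independent replicates, the day 6 change correlated at 0.635 with that of day 3 and at 0.27 with that of day 1, and at -0.0101 with tamoxifen alone on day 6 (0.0869 without replicate 2 of the Dox-Tmx+ group). Tamoxifen without doxycycline on day 3, on arrays that do not include that group, gave 0 calls by limma and 820 probes with an unadjusted p under 0.05, and its correlation with the day 6 change was 0.164. Of the probes that fell on day 6, 37.4% had a day 3 effect above 0 without doxycycline, and of those that rose 55.5%, against 49.8% of all probes, with medians of -0.02 and 0.01. Leaving out any 1 of its 4 arrays brought the 2423 calls of day 3 to between 1280 and 1485, and the 125 calls of day 1 fell to 48 without replicate 1 of the Dox+Tmx- group and to 60 and 77 without replicates 1 and 2 of the Dox+Tmx+ group. With local backgrounds as deposited day 3 gave 1002 calls and day 1 gave 26, with median centring 1228 and 52, and with the scanner software's ratio 1539 and 68. When only its own 4 arrays were fitted, day 1 gave 14.

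The 76 probes that rose at least 2-fold on day 6 had a median change of 0.06 on day 1, when 7 of them were called higher, and of 0.70 on day 3, when 61 were. A difference between the days themselves was called in few probes. The signed effect, which is lower where a fall has become larger as well as where a rise has become smaller, was higher on day 6 than on day 3 in 131 probes (0.396%) and lower in 29 (0.0876%), with 40 of the ES-high probes in the first group (3.33%). Against day 1 it was higher on day 6 in 719 (2.17%) and lower in 94 (0.284%), with 222 of the ES-high probes in the first group (18.5%). The total of 160 for day 6 against day 3 was 79 without replicate 1 of the Dox+Tmx- group of day 3, and 92 and 103 without replicates 1 and 2 of the Dox+Tmx+ group of that day. The total of 813 for day 6 against day 1 was 529 without replicate 2 of the Dox+Tmx- group and 489 without replicate 1 of the Dox+Tmx+ group of day 1.

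The courses of single probes differed. The probes given here for the differences between days were chosen after their values were seen. Z00034851-1, the repeat probe, had a tamoxifen effect of 0.02 on the first day, 0.55 on day 3 and 1.69 on day 6. The gain from day 3 to day 6 was 1.14 (SE 0.135, limma adjusted p = 5.28e-05) and from day 1 to day 6 it was 1.68. Z00029389-1 had reached 1.39 by day 3 after 0.19 on day 1, and its gain from day 3, 0.48, did not pass the threshold (limma adjusted p = 0.0622), while that from day 1, 1.68, did (limma adjusted p = 5.78e-09). Z00051631-1 had an effect of 0.17 on each of days 1 and 3 and of 1.59 on day 6, when its arrays went from 2.39 and 2.25 to 3.88 and 3.93, far above ES cells at 0.45 and iPS cells at 0.58. Its gain from day 3 was 1.41 (SE 0.109, limma adjusted p = 1.66e-07).

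Z00020905-1 had the opposite course. Tamoxifen took it from 1.44 and 1.29 to 2.76 and 2.68 on day 3, and on day 6 it stood at 0.36 and 0.37 without and at 0.58 and 0.35 with tamoxifen, so that the groups overlapped. The effect was 1.25 lower on day 6 than on day 3 (difference -1.25, SE 0.138, limma adjusted p = 1.94e-05). Z00036206-1 had effects of 0.00 (day 1), -0.25 (day 3) and -1.15 (day 6), and the difference between days 3 and 6 was -0.90 (SE 0.125, limma adjusted p = 0.000431). On day 6 it had gone back up under doxycycline alone, from -0.22 and -0.21 on day 3 to 0.42 and 0.48, and it had not done so with tamoxifen. Against day 1 its difference was -1.14 and that of Z00023888-1 was -1.02 (limma adjusted p = 0.000291).

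In primary MEFs with the Zscan4-ERT2 fusion but no KOS, 537 probes were higher with tamoxifen (1.62%) and 471 lower (1.42%). Both arrays with tamoxifen lay on 1 slide and both without it on another, scanned on different days, so tamoxifen, slide and scan day cannot be told apart there. Of the probes that rose on day 6 beside doxycycline, 135 were higher (6.01%) and 33 lower (1.47%), with a median change of 0.04. Of those that fell, 72 were lower (8.94%) and 20 higher (2.48%), with a median of -0.04. The correlation of the changes over all probes tested was 0.114.

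In median GC content the probes that moved differed little from the others, but calls were fewer among the probes richest in GC. The median GC content was 45% for the rising probes and for all tested, and 43.3% for the falling ones. Among the probes with the highest GC content, 55% to 86.7%, 4.28% rose and 1.11% fell, against 6.79% and 2.43% of all probes tested. The polyadenylation signals AATAAA or ATTAAA, searched for on the strand of the probe, were present in 10.3% of all probes, 11.6% of the rising and 13% of the falling ones. Calls were fewer in the dimmest of 5 equal brightness classes, where 2.1% rose and 0.589% fell. Some probes share 30 or more bases, and of 885 such pairs 93 had both members called, all 93 in the same direction. In 65 pairs 1 member was called, and in 57 of these the other changed in the same direction.

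Of the 33099 probes tested, 29764 were well above background on all 4 arrays, and 2206 of these rose and 791 fell, shares close to those over all probes tested. A further 80 probes were well above background on both tamoxifen arrays and on neither control array. Of these 16 rose, against 6.79% of all probes tested. The reverse held for 228 probes, of which 5 fell, a share close to the 2.43% of all probes tested. Both sets were defined on the arrays of the comparison itself, so these counts are a description. No probe was saturated in the sample channel on any of the 4 arrays.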

How the data were processed

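Scanner output of 36 2-colour arrays and a series matrix had been deposited. The file headers name Agilent Feature Extraction 9.5.1.1 as the software that measured the spots, and the deposited mean spot intensity and median local background intensity of each channel were used. The scanner software's log10 ratio, which the authors deposited as red over green and which was turned here, was an alternative. So was the series matrix of 25030 probes, whose scale was found by comparison with the scanner values (correlation with log10 of the sample channel 0.952 to 0.98, medians 2.371 to 2.455). It was read as log10 sample brightness, and the authors' centring and any adjustment of it are unknown. Of its probes 20183 were tested, against 33099 in the main fit, so counts from it have a smaller base.

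Groups came from the labels. Local backgrounds marked as outliers were replaced by the array's median, normexp was applied with an offset of 50, and within-array loess was run on the ratios. Controls and non-uniform spots had no weight, and spots of 1 probe were averaged. Without the replacement the background fit failed on 2 arrays (1 of wild MEFs with tamoxifen, 1 of Dox-Tmx- on day 6), with fitted reference SDs of 565.6 and 170.9. It was also wide on replicate 1 of Dox+Tmx- (reference, 8.915) and of Dox+Tmx+ (sample, 5.983) on day 1. With the replacement the reference SD was near 0 on replicate 2 of Dox-Tmx+ on days 6 (0.002) and 3 (0.000345) and replicate 1 of Dox+Tmx- on day 1 (0.0001625). The effect of this was not tested. The replacement was chosen knowing that it raises the number of calls. A probe stayed in (33099 did) if some group had a sample signal well above background on each of its arrays. Limma 3.58.1 (R 4.3.3) was fitted with a mean for every group (residual degrees of freedom 18, prior 4.9), with Benjamini-Hochberg adjustment over all probes, and was tested on simulated data.

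No probe carried a gene name and the RefSeq tables given could not be joined to the probes, so the planned gene lists, cell type markers and rule by symbol were not used. Named instead were the 2 rising and 2 falling probes with the largest change among called probes without overlap between groups and well above background on all 4 arrays; probes for the other comparisons were chosen after their values were seen. The comparison, the lists and the tests were chosen with earlier results of these data known. The labels do not say that replicate numbers pair the samples, and the correlation of replicate differences was not over 0.1 throughout (0.527 on day 6, 0.389 on day 6 without doxycycline, -0.259 on day 3, -0.0453 on day 1, and 0.33 between the Dox+Tmx+ groups of days 6 and 3), so they were not used as a block.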

Additional observations from a re-analysis of the deposited data

Results flagged for a closer look

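The effect of tamoxifen differed between groups by a test of the difference itself (limma, all arrays) in 3 comparisons. With and without doxycycline on day 6 it differed in 1337 probes, among them Z00019524-1 (2.29), Z00038074-1 (2.13), Z00022184-1 (-1.33) and Z00036206-1 (-1.29, all on the log2 scale). Between days 6 and 3 of doxycycline it differed in 160 probes, among them Z00051631-1 (1.41), Z00034851-1 (1.14), Z00020905-1 (-1.25) and Z00036206-1 (-0.90). Between days 6 and 1 it differed in 813 probes, among them Z00029389-1 and Z00034851-1 (1.68 each), Z00036206-1 (-1.14) and Z00023888-1 (-1.02). These comparisons share the 4 arrays of day 6 with each other. The number of differences with and without doxycycline was 1015 without replicate 2 of the Dox-Tmx+ group of day 6, 6575 without replicate 1 of that group and 840 without replicate 1 of the Dox-Tmx- group. What sets replicate 2 of the Dox-Tmx+ group apart was not tested.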

How the results depend on the processing

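The 3051 calls of the main comparison were 1395 with local backgrounds as deposited, 2021 with the scanner software's ratio, 1624 with median centring, 978 with only the arrays compared, and 1818 to 2243 with 1 of the 4 arrays left out. In the same order of settings the difference with and without doxycycline (1337) gave 596, 651, 631, 202 and 840 to 6575, and 848 without the 2 arrays whose background fit failed; the difference of days 6 and 3 (160) gave 32, 53, 56, 22 and 79 to 149; and that of days 6 and 1 (813) gave 200, 336, 410, 468 and 489 to 715. ES-high rises (457) were 121 with deposited backgrounds, 304 in the series matrix and 278 with only the arrays compared, and MEF-high falls (308) were 151 with deposited backgrounds, 152 with median centring, 89 with only the arrays compared and 169 to 241 with 1 array left out. The scanner software's ratio gave 6769 probes with a 4-fold difference between ES cells and MEFs, against 3708, and a median over all probes of 0.10, against -0.04, with 53.7% of all calls higher in ES cells, against 45.5%. The causes were not tested, except that fewer arrays leave fewer degrees of freedom. The 4 probes of the main comparison kept their direction and call in all 60 combinations of probe and setting. Of 90 combinations for the other named probes 4 lost the call on day 6, 3 for Z00023888-1 and 1 for Z00022184-1. The 90 include those of Z00019524-1 and Z00020905-1, which had no call on day 6 to lose and stayed uncalled. The uncalled day 6 change of Z00020905-1, 0.10, was -0.01 without replicate 1 of the Dox+Tmx+ group. With the replicate number as a block (replicate block) 3047 probes were called; the numbers are not known to pair the samples. Fits that leave 1 array in a group assume that it varies like the other groups. Probes near the scanner background are limited by their signal.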
